A study of Mus musculus with 2 samples.

Results

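The genes described here are 44 known imprinted genes of the mouse, listed by name from known biology. The list uses no measured value, but it was drawn up with earlier results of these data known. Of these, 43 were found among the 43346 annotated genes of the deposited tables by gene identifier, and Peg13 was not analysed here. The tissue was hindbrain, the rear brain vesicle and source of the later cerebellum and brainstem, from B6NCrl embryos at 10.5 days. Total RNA was sequenced from 2 pools of healthy embryos of mixed sex, 69 embryos in replicate 1 and 51 in replicate 2, with 10 ng of RNA in each library. Both pools carry the same donor ID in the labels, and they are numbered as biological replicates. The single group allowed no comparison between conditions, so the results are levels, their spread over the pools, and differences between the pools that have 1 library on each side and no test.

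Imprinted genes are expressed mainly or only from the copy inherited from the mother or from the father. They lie in clusters, each governed by a control region whose DNA methylation was set in the egg or the sperm and is kept through the later divisions of the embryo. Many act on growth, on the placenta or on the nervous system, and in the brain the expressed copy of some of them differs from that in other tissues. The reads were not assigned to parental copies: "paternal" and "maternal" are background knowledge about each gene and were not measured, and for 11 of the 43 genes the expressed copy depends on the tissue or the isoform.

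Levels are given as TPM, a read count of transcripts corrected for transcript length and scaled to a fixed total in each library, so that levels of different genes can be compared. Values stand in the order replicate 1 and replicate 2, and an SD has n = 2. A gene was called detected where both of its TPM values reached 1. The annotated genes received 38170078 counts in replicate 1 and 36382223 in replicate 2. The hindbrain label held in the markers: all 7 hindbrain genes examined were detected (summed TPM 224.25 and 173.37), while 3 of 5 forebrain genes were detected (summed TPM 35.16 and 35.51). Markers of other cells were present in both pools, with summed TPM of 12346 and 14211 for 5 erythroid genes, 672.0 and 576.6 for 7 mesenchymal genes, and 137.4 and 162.4 for 6 endothelial genes. In bulk tissue, fewer cells of a type and less RNA per cell cannot be told apart.

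Several of the genes have more than a single start of transcription, and 2 pairs of starts carried very unequal shares of the reads. These bases just upstream of the starts are shown because the results below compare the starts that follow them. They come from RefSeq on GRCm38.p6, the assembly also called mm10, are written 5′ to 3′ along the strand of the named gene, and leave out annotated exons. Capitals mark CG, the dinucleotide that carries DNA methylation.
Mest, main start (chr6:30737800-30738049, plus strand): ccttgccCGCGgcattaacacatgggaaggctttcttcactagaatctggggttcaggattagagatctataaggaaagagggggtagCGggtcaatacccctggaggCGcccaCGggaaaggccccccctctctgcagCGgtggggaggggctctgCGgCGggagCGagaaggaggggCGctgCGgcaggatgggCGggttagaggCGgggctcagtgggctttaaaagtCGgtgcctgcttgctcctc
Mest, upstream start (chr6:30733256-30733453, plus strand): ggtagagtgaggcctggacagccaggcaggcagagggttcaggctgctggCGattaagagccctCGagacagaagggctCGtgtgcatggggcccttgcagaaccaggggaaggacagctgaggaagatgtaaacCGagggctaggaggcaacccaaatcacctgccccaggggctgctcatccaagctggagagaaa
Grb10, main start (chr11:12037421-12037670, minus strand): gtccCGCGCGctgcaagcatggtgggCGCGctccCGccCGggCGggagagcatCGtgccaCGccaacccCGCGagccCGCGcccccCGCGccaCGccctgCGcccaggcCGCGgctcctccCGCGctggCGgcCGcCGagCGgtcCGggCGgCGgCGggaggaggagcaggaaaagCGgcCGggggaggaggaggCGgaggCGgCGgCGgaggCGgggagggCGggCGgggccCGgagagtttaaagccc
Grb10, downstream start (chr11:12027972-12028221, minus strand): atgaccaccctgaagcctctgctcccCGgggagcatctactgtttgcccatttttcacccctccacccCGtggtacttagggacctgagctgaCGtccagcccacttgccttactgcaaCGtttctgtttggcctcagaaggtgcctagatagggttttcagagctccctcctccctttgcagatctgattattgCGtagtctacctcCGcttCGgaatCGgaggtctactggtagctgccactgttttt

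The main start of Grb10 was preceded by 40 CG in 250 bases and its downstream start by 8 in 250 bases. For Mest the numbers were 14 in 250 bases at the main start and 4 in 198 bases at the upstream start. In both genes the start with more CG before it also carried the larger share of TPM. Gnas, Meg3 and Snrpn went the same way, Asb4 and Igf2 went the other way, and the relation was not counted over all genes. In the 300 bases around each start, Gnas had 40 CG at its main start (96.8% and 96.4% of TPM) and 16 to 28 at others. Meg3 had 13 CG at its main start (72.9% and 82.3%) and 1 at a later start. Snrpn had 7 at its main start (95.7% and 97.8%) and 3 at the start at 60140219. Asb4 had 6 CG at its main start (83.6% and 85.2% of TPM) and 8 at its other. Igf2 had 2 CG at its start at 142666816 (46.0% and 42.9%). It had 14 at a start between 142661205 and 142661870, a group with 3.95% and 5.05%.

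Of the 43 genes, 35 were detected, 2 passed a TPM of 1 in a single library, and 6 were under 1 TPM in both. Over all annotated genes 33.0% were detected, and over protein-coding genes 58.8%. The detected imprinted genes had median levels of 38.67 and 36.71 TPM, against 16.36 and 17.09 TPM for all detected genes, and 24 of the 35 lay above that general median in both libraries. All 43 together held 0.793% of TPM in replicate 1 and 0.667% in replicate 2. Nnat, Mest and Gnas alone made up 61.4% and 59.5% of that sum. The levels reached from 0.11 TPM for Rasgrf1 to 2189.9 TPM for Nnat in replicate 1, and from 0.10 TPM for Rasgrf1 to 1404 TPM for Mest in replicate 2.

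**Figure D1:**
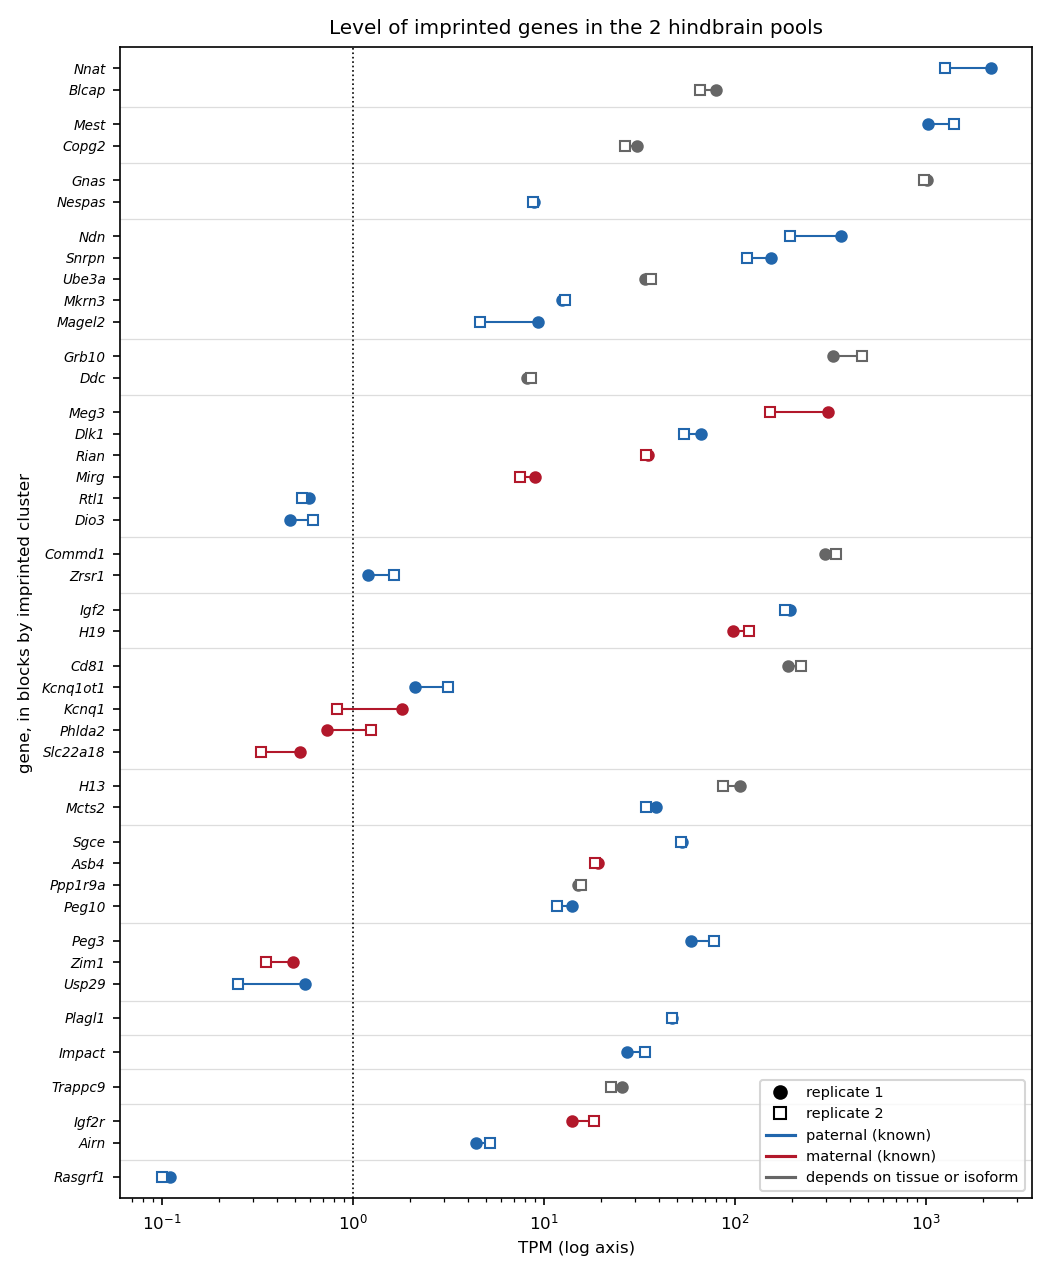
Level of each of the 43 imprinted genes (TPM, log axis) in replicate 1 (filled circles) and replicate 2 (open squares), in blocks by imprinted cluster, coloured by the parental copy known to be expressed. The dotted line marks a TPM of 1; Nnat, Mest and Gnas lie farthest to the right, and 6 genes lie left of the line in both pools.

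Genes known to be expressed from the paternal copy numbered 22, of which 18 were detected, and they held 59.6 ± 3.36% of the summed TPM of the imprinted genes. Of the paternal sums of 4277.5 and 3518 TPM, most came from Nnat (2189.9 and 1268.7 TPM) and Mest (1032 and 1404 TPM). The 10 maternally expressed genes, of which 6 were detected, held 6.43 ± 0.949%. All 11 genes whose expressed copy varies were detected, and they held the remaining 33.9 ± 4.30%, most of it from Gnas, Grb10 and Commd1. The order of these 3 shares was the same in both libraries, but the lead of the paternal genes rests on Nnat and Mest.

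Insulin-like growth factor 2 and the genes around it form the growth axis of imprinting. Igf2, a fetal growth factor made from the paternal copy, was at 196.1 and 183.5 TPM (chromosome 7, 142650766 to 142666816). H19, a noncoding RNA made from the maternal copy of the same cluster, was at 98.48 and 119.4 TPM (142575529 to 142578143). H19 thus lay below Igf2 in both pools, by 1.99-fold and 1.54-fold, although Igf2 was the lower and H19 the higher in replicate 2. Igf2r, the maternally expressed receptor that carries Igf2 to the lysosome for breakdown, was at 14.13 and 18.41 TPM. Airn, the paternal noncoding RNA that silences the paternal Igf2r copy in many tissues, was at 4.44 and 5.26 TPM. Airn is known as a long and mostly unspliced transcript, and the annotated forms counted here had a mean length of 923.4 and 899.4 bases, so reads from the rest of that transcript are not in its value.

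The other genes of the insulin-like growth factor pathway were measured beside them. Of 15, among them ligands, receptors, receptor substrates, binding proteins and proteases, 9 were detected. The binding proteins Igfbp2 (600.0 and 416.1 TPM) and Igfbp4 (346.97 and 355.3 TPM) were the highest. Igf1r, the receptor through which Igf2 acts on growth, was at 23.01 and 15.98 TPM, and the second ligand Igf1 at 16.23 and 18.56 TPM, so Igf2 was the more abundant of these ligands in both pools. None of the 12 that passed the count filter differed by 2-fold between the pools, but with spike-in scaling 6 were at least 2-fold higher in replicate 2.

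Grb10, an adaptor that dampens signalling from insulin and insulin-like growth factor receptors, was among the highest of the imprinted genes, at 328.0 and 462.4 TPM (chromosome 11, 11930508 to 12038683). It is expressed from the maternal copy in most tissues and from the paternal copy, through starts downstream of the main one, in neurons. The main start at 12037401, whose upstream bases are shown above, carried 93.1% and 94.0% of Grb10 TPM. The start at 12027971 carried 5.96% and 4.87%, and the starts at 12026732 and 12026324 carried 0.314% and 0.190%. In TPM, the main start was at 305.5 and 434.8 and the start at 12027971 at 19.56 and 22.52, so both were higher in replicate 2. Ddc, its neighbour, which makes dopamine and serotonin from their precursors, was at 8.18 and 8.62 TPM.

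Plagl1, a zinc finger factor made from the paternal copy, was at 47.28 and 47.09 TPM, with 98.9% and 98.2% of it from a group of starts between 13090691 and 13091013 of chromosome 10. Dlk1, a paternally expressed membrane protein related to Notch ligands, was at 66.31 and 54.50 TPM. Cd81, a tetraspanin at the cell surface, was at 190.2 and 223.6 TPM, while its neighbours Phlda2 and Slc22a18, known as maternally expressed genes of the placenta, had 13 and 20 counts and 18 and 9 counts. Phlda2 was at 0.73 and 1.25 TPM and Slc22a18 at 0.53 and 0.33 TPM, and Kcnq1, a potassium channel of the same cluster, at 1.82 and 0.83 TPM.

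Kcnq1ot1 is the paternal noncoding RNA of that cluster and runs against the direction of Kcnq1 inside its span. It received 4838.5 and 6443 counts, far more than the 68.77 and 59.20 counts of Kcnq1, yet its level was only 2.12 and 3.15 TPM because its annotated transcript is 84395 bases long. The deposited credibility interval of Kcnq1 reached from 1.76 to 4.73 TPM in replicate 1 and from 1.13 to 3.75 TPM in replicate 2. Its point value in replicate 2 thus lay outside its own interval, as 1 of 6 imprinted genes with such a value in at least 1 library. The others were Nnat, Mest, Gnas, Grb10 and Ndn, each above its interval in both libraries. For Nnat in replicate 1 the point value was 2189.9 TPM and the interval 2127 to 2161 TPM. A strand setting is not given in the sources used here, and reads of an antisense RNA and of the introns it overlaps cannot be told apart without strand.

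The cluster from Dlk1 to Dio3 on chromosome 12 is read from the maternal copy into a series of noncoding RNAs that hold many microRNAs. Meg3, the first of them, was at 310.04 and 152.8 TPM, Rian at 35.13 and 34.29 TPM, and Mirg, the last, at 8.96 and 7.52 TPM. Among these noncoding RNAs the level fell in both pools from Meg3 to Rian to Mirg, their order along the chromosome. Meg3 was the maternally expressed gene of highest level in the list and exceeded Dlk1, the paternal gene next to it, 4.68-fold and 2.80-fold. Rtl1, a paternally expressed gene derived from a retrotransposon, was at 0.59 and 0.54 TPM, and Dio3, which inactivates thyroid hormone, at 0.47 and 0.62 TPM with 20 and 29 counts.

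MicroRNAs are shorter than the 200 bases that were the lower limit of the RNA used here, so they were not measured themselves. The annotation places 14 hairpins inside Mirg and 3 inside Rian on the strand of the host, and 6 inside Rtl1 on the opposite strand, which is the strand of the maternal RNAs. For the hairpins opposite Rtl1, the RNA that holds them was not analysed here, and Rtl1 itself, on the other strand, was under 1 TPM in both pools. One arm each from 5 of these 6 hairpins is shown, since they lie opposite Rtl1, and miR-432 and the other arms are left out. Igf2 and Meg3 hold 1 hairpin each and were above H19 in both pools, but their microRNAs are not shown. One arm each from H19 and Mest is shown as an example. They are RefSeq mature sequences on GRCm38.p6, with the seed, bases 2 to 8, in capitals.
miR-127-3p, opposite Rtl1: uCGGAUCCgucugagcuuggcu
miR-136-5p, opposite Rtl1: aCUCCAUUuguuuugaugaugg
miR-431-5p, opposite Rtl1: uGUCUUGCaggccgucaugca
miR-433-3p, opposite Rtl1: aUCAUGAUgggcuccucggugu
miR-434-3p, opposite Rtl1: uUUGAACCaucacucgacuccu
miR-675-5p, inside H19: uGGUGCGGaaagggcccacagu
miR-335-5p, inside Mest: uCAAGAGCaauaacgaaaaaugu
No seed was shared between any of these 7 sequences.

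Mest, a member of the hydrolase family made from the paternal copy and named for its expression in mesoderm, was at 1032 and 1404 TPM, below Nnat in replicate 1 and the highest of the imprinted genes in replicate 2 (chromosome 6, 30723547 to 30748465). Starts between 30738050 and 30738055 carried 98.5% and 98.3% of it. Those between 30733454 and 30733506, which follow the stretch with fewer CG shown above, carried 0.0145% and 0.0577%, at 0.15 and 0.81 TPM. Copg2, a coat protein of Golgi vesicles, runs against Mest and overlaps its end by 912 exonic bases. Copg2 was at 30.71 and 26.80 TPM. The deposited SD of read assignment was 19.81 counts for both genes in replicate 1 and 18.02 counts for both in replicate 2, which is under 1.0% of the counts of either gene. The strand setting is not given, and without strand reads of these shared bases cannot be told apart.

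Peg3, a paternally expressed zinc finger protein, was at 59.38 and 78.32 TPM (chromosome 7, 6703892 to 6730431). Usp29, which is paternally expressed too and whose annotated span begins 146 bases away in the other direction, was at 0.56 and 0.25 TPM with 38 and 15 counts. The level of Peg3 was 106-fold and 313-fold above that of Usp29. The only form of Usp29 in the tables begins at 6961160, far from Peg3, so forms that begin next to Peg3 were not measured here. Zim1, a maternally expressed zinc finger gene on the other side of Peg3, was at 0.49 and 0.35 TPM. Peg10, derived from a retrotransposon, and Sgce, a subunit of the sarcoglycan complex, start back to back, 98 bases apart. Sgce was the higher of them in both pools, with Peg10 at 14.07 and 11.78 TPM and Sgce at 53.02 and 52.36 TPM. Further along that cluster, Asb4, a maternally expressed adaptor of ubiquitin ligases, was at 19.38 and 18.53 TPM, and Ppp1r9a, an actin-binding protein of neurons, at 15.18 and 15.79 TPM.

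A set of paternally expressed genes lies inside other genes. Nnat, the small membrane protein neuronatin, sits within an intron of Blcap on the opposite strand (chromosome 2, 157560078 to 157562522) and was at 2189.9 and 1268.7 TPM. It was the highest of the imprinted genes in replicate 1 and by mean TPM, where it ranked 46 among all annotated genes, and was below Mest in replicate 2. Its host Blcap was at 79.91 and 66.19 TPM, so the guest exceeded the host 27.4-fold and 19.2-fold. Mcts2, a copy of Mcts1 that arose by reverse transcription, lies within H13 on the same strand and was at 38.67 and 34.45 TPM against 107.1 and 86.90 TPM for H13, a protease of signal peptides. Zrsr1, a copy of the splicing factor gene Zrsr2, lies within Commd1 and was at 1.21 and 1.65 TPM against 298.8 and 341.5 TPM for Commd1, a regulator of copper handling and of protein sorting. The guest was thus above its host in 1 of these 3 pairs, in both pools.

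The X-linked genes from which the copies arose were both higher than their copies. Mcts1 was at 84.60 and 74.67 TPM and Zrsr2 at 42.60 and 51.76 TPM. For Mcts1, Mcts2 and Zrsr2 the deposited SD of read assignment was 0 in both libraries, so no reads were divided between the copy and its parent. For Zrsr1 it was 1.37 and 1.68 counts of 104.49 and 127.5, and its exons overlap exons of Commd1 by 412 bases.

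**Figure D2:**
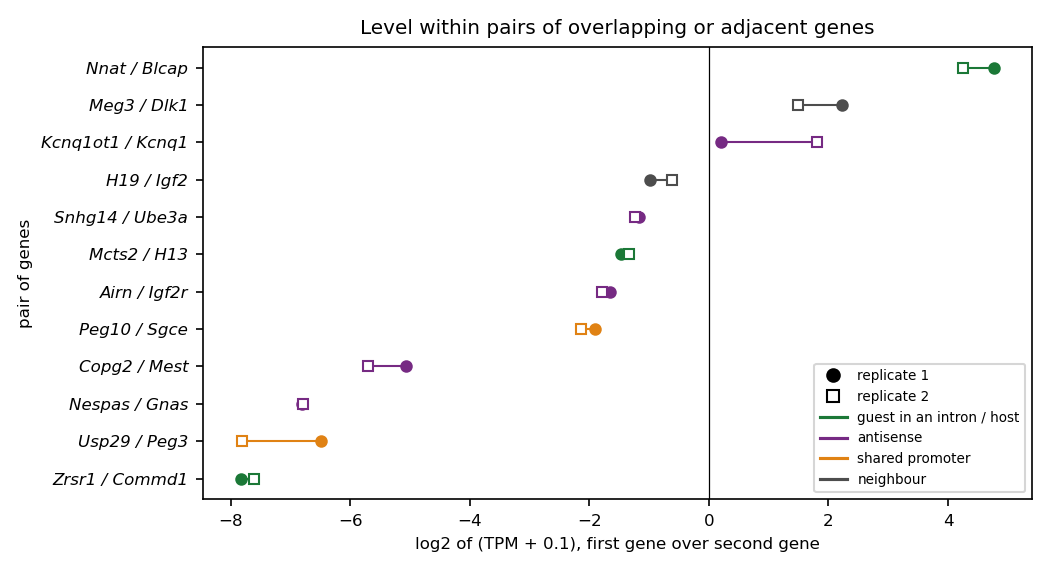
Difference in level within pairs of overlapping or adjacent genes, as log2 of (TPM + 0.1) of the first gene over the second, in replicate 1 (filled circles) and replicate 2 (open squares), coloured by how the genes lie to each other. Nnat over Blcap is at 4.77 and 4.26 and Usp29 over Peg3 at -6.49 and -7.81; pairs right of 0 have the first gene higher.

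H13 is known to end its transcripts before Mcts2 on the copy where Mcts2 is active and after it on the other. Of H13 TPM, 15.4% in replicate 1 and 19.4% in replicate 2 came from the 2 annotated forms that end before Mcts2, and 84.6% and 80.6% from forms that end after it. The commonest form, a coding transcript of 1743 bases, ends after Mcts2 and was at 80.58 and 62.12 TPM. The commonest of those ending before it, a retained-intron form of 2769 bases, was at 11.24 and 10.31 TPM.

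Gnas makes several proteins from one locus (chromosome 2, 174284320 to 174346744), among them the alpha subunit of the stimulatory G protein, and was at 1014 and 981.6 TPM. Starts between 174330006 and 174330287, which make that subunit and are used from both copies in most tissues, carried 96.8% and 96.4% of its TPM. Starts between 174327570 and 174328023, where the paternal exon 1A form begins, carried 1.93% and 2.36%. Starts between 174284320 and 174285358, where the maternal Nesp form begins, carried 0.547% and 0.636%, and the start at 174297859, from which the paternal XL form is made, 0.109% and 0.0866%. In TPM the imprinted starts were at 19.54 and 23.15, at 5.54 and 6.24, and at 1.10 and 0.85. Nespas, the paternal noncoding RNA antisense to the Nesp start, was at 8.93 and 8.81 TPM and overlaps exons of Gnas by 988 bases, with the same limit on strand.

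The Snrpn to Ube3a region of chromosome 7 is the mouse counterpart of the region of the Prader-Willi and Angelman syndromes. Ndn, a protein of postmitotic neurons made from the paternal copy, was the highest of its members at 359.3 and 195.2 TPM (62346569 to 62350262). Snrpn, a core protein of the spliceosome, was at 154.3 and 116.1 TPM, with 95.7% and 97.8% from the start at 60005111 and the rest from the start at 60140219. Magel2 was at 9.37 and 4.62 TPM (62377010 to 62381640) and Mkrn3, a ubiquitin ligase, at 12.42 and 12.96 TPM. Ube3a, a ubiquitin ligase expressed from the maternal copy in neurons and from both copies elsewhere, was at 34.15 and 36.71 TPM. Snhg14, the long antisense RNA that silences the paternal Ube3a copy in neurons, was at 15.19 and 15.44 TPM, but its annotated exons include forms far from Ube3a, and 1803 of its exonic bases overlap exons of Ube3a.

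The remaining genes lie alone or with an unmeasured partner. Impact, a regulator of translation made from the paternal copy, was at 27.21 and 33.98 TPM. Trappc9, a subunit of a vesicle tethering complex, was at 25.71 and 22.55 TPM. Rasgrf1, a paternally expressed exchange factor of Ras that is known from the brain after birth, had 13 and 11 counts, the fewest over both pools in the list.

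**Figure D3:**
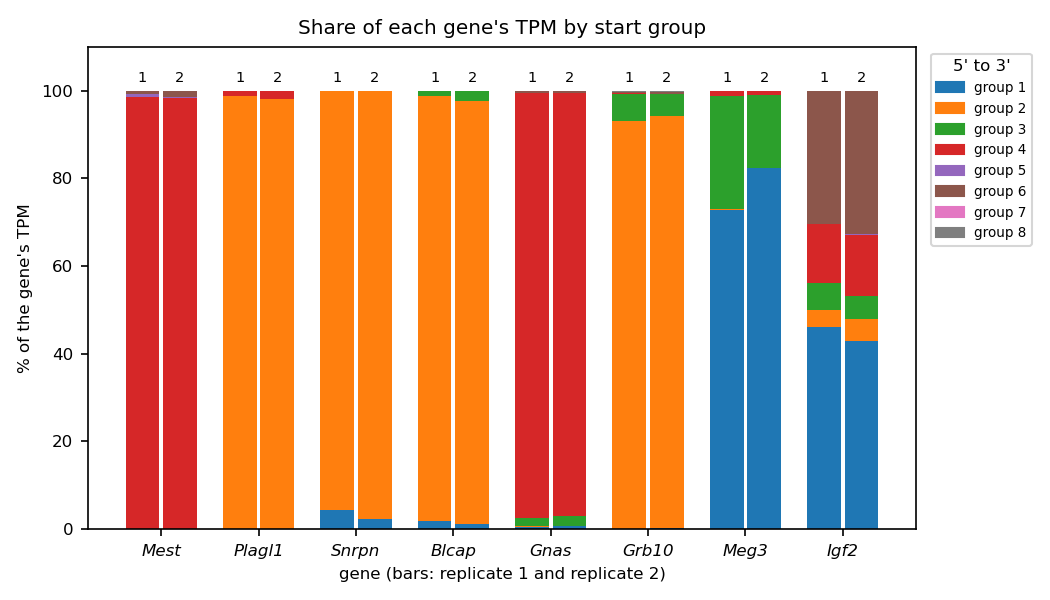
Share of each gene's TPM (%) by group of annotated starts, numbered 5′ to 3′ along the gene, with bars for replicate 1 and replicate 2. In Mest, Plagl1, Snrpn, Blcap, Gnas and Grb10 a single group holds over 93% in both pools, while Meg3 and Igf2 are divided over several groups.

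In Igf2 and Meg3 no single group of starts held over 93% in both pools. For Igf2 the start at 142666816 carried 46.0% and 42.9% of TPM through a coding form of 650 bases, and the start at 142653030 carried 30.5% and 32.7% through a noncoding form of 958 bases. Shares of TPM give such short forms more weight per read. For Meg3 the starts between 109541001 and 109541007 carried 72.9% and 82.3%, and a group of 4 starts between 109544498 and 109546445 carried 25.8% and 16.7%. The latter group was at 80.01 and 25.51 TPM, a wider gap than that of the first group (225.95 and 125.8 TPM).

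The pools were then compared gene by gene, as log2 of replicate 2 over replicate 1 after scaling the counts so that the typical gene is at 0. A CPM (a count scaled to library size) of 1 or more was required in each library, which 37 of the 43 genes and 14385 of all annotated genes met. The 6 left out were Usp29, Zim1, Phlda2, Slc22a18, Rasgrf1 and Dio3. Intervals of 95% are exact binomial ones and cover counting error only. Beyond counting error, the spread between the pools over all tested genes corresponded to a biological coefficient of variation of 0.204.

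Magel2 and Meg3 were at least 2-fold lower in replicate 2, and no imprinted gene was at least 2-fold higher there. Over all tested genes 3.61% were at least 2-fold lower and 0.792% at least 2-fold higher, 4.41% in either direction, so 2 of 37 is close to the general share. Magel2 was at -1.10 (interval -1.25 to -0.95) with 1156 and 511 counts. Meg3 was at -1.04 (interval -1.08 to -0.998) with 14326 and 6600 counts. Ndn at -0.96 and Nnat at -0.86 came next and were the only others that differed by at least 1.5-fold, a limit that 9.40% of all tested genes passed in this direction and none of the imprinted genes in the other (4.03% of all). All of this is on a scale where the typical gene is at 0: scaling by spike-ins moved the median of all tested genes by 0.82, which left Magel2 at -0.28, Meg3 at -0.22, Ndn at -0.14 and Nnat at -0.04, with 8 imprinted genes at least 2-fold higher and none 2-fold lower in replicate 2.

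The 37 genes had a median of -0.13 (0.69 with spike-in scaling) against -0.0010 for all tested genes, with 22 lower and 15 higher in replicate 2, where 50.1% of all tested genes were lower. Their median distance from 0 was 0.25, against 0.21 for all tested genes. By parental copy, 12 of 19 paternal genes (median -0.18), 5 of 7 maternal genes (median -0.13) and 5 of 11 genes with a varying copy (median 0.025) were lower in replicate 2. The highest ratios were those of Kcnq1ot1 (0.49), Grb10 (0.41), Zrsr1 (0.37), Mest (0.36) and Peg3 (0.34), and the interval of Zrsr1, with 104.49 and 127.5 counts, reached from -0.007 to 0.77.

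**Figure D4:**
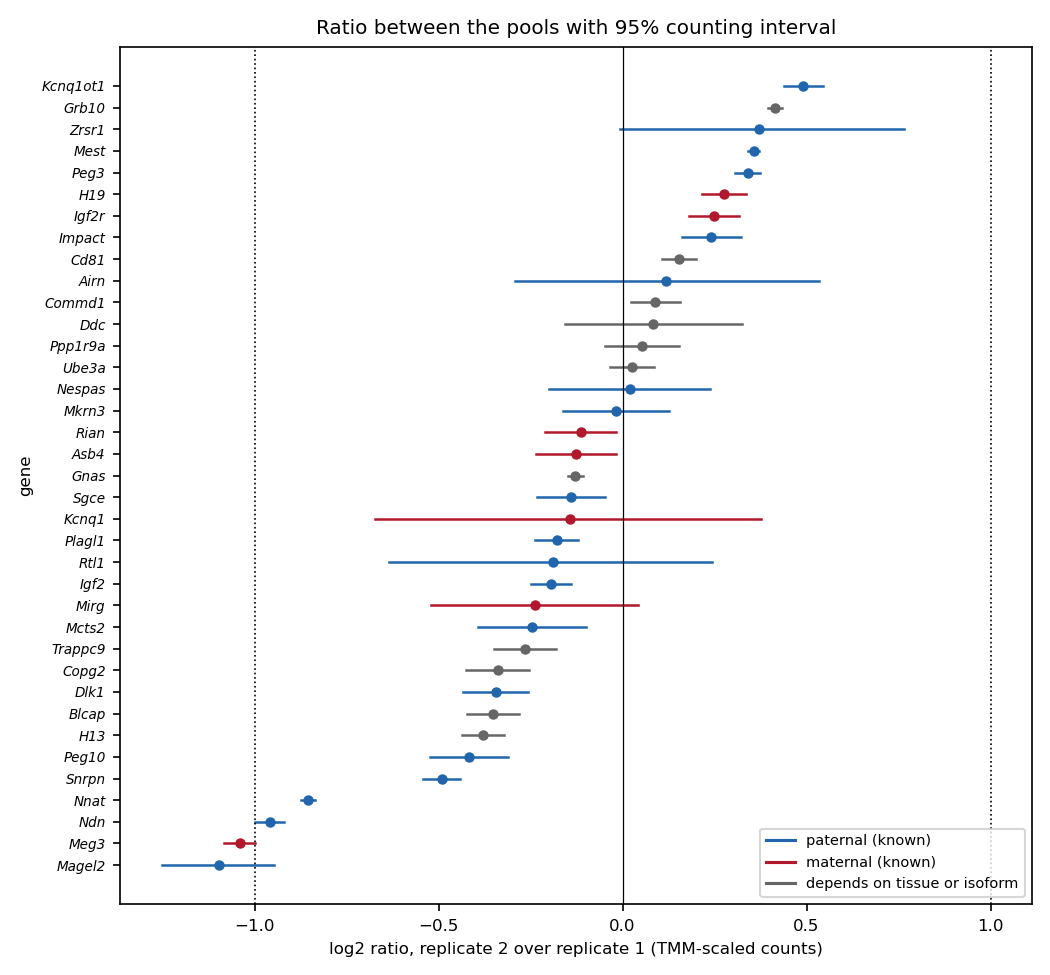
Ratio between the pools for the 37 imprinted genes that passed the count filter (log2 of replicate 2 over replicate 1, points) with 95% counting intervals (lines), coloured by the parental copy known to be expressed. Dotted lines mark 2-fold; Magel2, Meg3, Ndn and Nnat stand apart at the low end, and Kcnq1ot1 has the highest value.

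Ratios of genes in the same cluster were set side by side. Their intervals cover counting error only and not the further spread between the pools. Neither overlap of intervals nor its absence is therefore a test of a difference between genes. In the Snrpn to Ube3a region, Magel2 (-1.10), Ndn (-0.96) and Snrpn (-0.49) were lower in replicate 2, while Mkrn3 was at -0.018 and Ube3a at 0.025, although Mkrn3 is paternally expressed like the first 3. In the Dlk1 to Dio3 region, Meg3 was at -1.04 but Rian at -0.11 and Mirg at -0.24, although all 3 are read from the maternal copy in the same direction, and the interval of Meg3 did not overlap theirs (Rian -0.21 to -0.017, Mirg -0.52 to 0.042). Nnat was at -0.86 and its host Blcap at -0.35. Igf2 was at -0.19 and H19 at 0.28. Peg10 was at -0.42 (interval -0.52 to -0.31), and its interval did not overlap that of Sgce (-0.23 to -0.048), which starts back to back with it. By contrast, the counting intervals overlapped for Mcts2 (-0.25) and H13 (-0.38), for Igf2r (0.25) and Airn (0.12), and for Gnas (-0.13) and Nespas (0.020). They also overlapped for Sgce (-0.14) and the more distant Asb4 (-0.13) of the same cluster.

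Neuronal genes differed between the same pools. All 7 neuronal markers were lower in replicate 2, with a median of -1.06, a range from -1.73 to -0.53 and summed TPM of 1709 and 1009. Tubb3, the neuronal tubulin, was at 726.9 and 472.7 TPM and Dcx, a microtubule protein of young neurons, at 75.06 and 33.20 TPM. Markers of dividing cells went the other way, 5 of 5 higher with a median of 0.56. Neural progenitor markers were lower in 5 of 6 (median -0.18), and erythroid genes were higher in 4 of 5 (median 0.26). The 7 mesenchymal markers had a median of -0.19, the 6 endothelial ones 0.03, and the 3 choroid plexus markers -2.90 with summed TPM of 267.7 and 40.94. Macrophage markers were lower in 4 of 4 (median -0.65), hindbrain markers in 6 of 7 (median -0.46), and forebrain markers were higher in 3 of 4 (median 0.52). With spike-in scaling, 5 of the 7 neuronal markers were still lower in replicate 2, with a median of -0.24. Nnat, Ndn, Magel2 and Meg3 are known to be expressed in neurons, and the part of the cell makeup of the pools in their ratios was not tested.

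**Figure D5:**
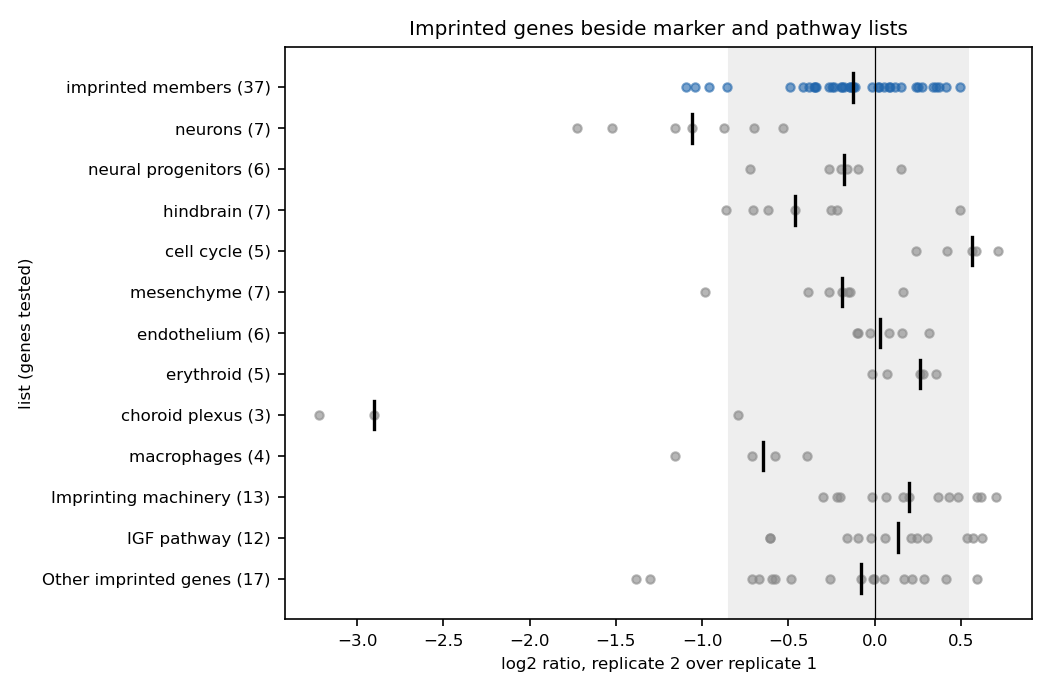
Ratio between the pools (log2 of replicate 2 over replicate 1) for each tested gene (points) of the imprinted list and of marker and pathway lists, with the median of each list (black bar) and the number of genes tested. The grey band spans the 5th to the 95th percentile of all tested genes, -0.85 to 0.54; neuronal and choroid plexus markers lie lowest and cell cycle genes highest, while most imprinted genes lie inside the band.

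RNA of genes that set, keep or read imprints was measured too. Imprints survive cell division because Uhrf1 brings the methyltransferase Dnmt1 to newly copied DNA, and Zfp57 and Zfp445 bring Trim28 and Setdb1 to control regions. Of the 16 genes in the list that set, keep or read imprints, 13 were detected. Trim28 was at 299.4 and 338.5 TPM, Uhrf1 at 157.1 and 253.4 TPM, Dnmt3a at 100.8 and 95.19 TPM, Ctcf at 80.32 and 114.5 TPM, Dnmt1 at 72.44 and 106.9 TPM and Zfp57 at 77.64 and 67.60 TPM. The 3 that were not detected, Dnmt3l, Dppa3 and Ctcfl, are known from germ cells and the early embryo, and had at most 6 counts in a library; they are named after their values were seen. The 13 had a median ratio of 0.20, with 9 higher in replicate 2 and none past 2-fold, while with spike-in scaling all 13 were higher and 7 passed 2-fold.

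Zfp57 binds the letters TGCCGC where they are methylated. These letters, searched on both strands, occurred in the 300 bases around the start (250 before and 50 after) of 11 of the 35 imprinted genes found in the RefSeq table, and in 13.1% of all genes there. The letters contain a CG, and the windows of the imprinted genes held a median of 14.5 CG against 7 in all windows. The 11 were Mcts2, Nnat, Mest, Copg2, Zim1, Snrpn, Igf2, Plagl1, Grb10, Commd1 and Meg3. Mest had 2 matches before its main start, both inside the stretch shown above, and none before its upstream start. In Grb10 the window of the main start held a match, outside the stretch shown above, and that of the downstream start held none. A match says only that the letters are there.

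A list of 23 further imprinted genes was measured for comparison, and 17 of them were detected. Cdkn1c, an inhibitor of the cell cycle made from the maternal copy, was the highest at 393.5 and 261.5 TPM, followed by Nap1l4 (269.6 and 284.2 TPM), Tssc4 (114.1 and 117.5 TPM) and Peg12 (65.11 and 83.90 TPM). Of the 17 that passed the count filter, 11 were lower in replicate 2, with a median of -0.078. Nap1l5 (15.40 and 6.21 TPM, ratio -1.38) and Begain (12.82 and 4.99 TPM, ratio -1.30) were the 2 past 2-fold, which neither was with spike-in scaling, and are named after their values were seen.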

How the data were processed

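Total RNA over 200 nucleotides from 2 hindbrain pools was quantified by the submitters. The deposited gene and transcript tables hold, per the file headers, an expected count (an estimated count), TPM with a posterior mean and a credibility interval, and FPKM. The deposited file notes give mm10 as the assembly and M4 as the annotation, and the quantification program is not given in the sources used here. Symbols, positions and starts came from GENCODE M21, also on mm10, by identifier with the version removed (42462 of 43346 genes found), and 230 of 266 transcripts of the imprinted genes had the same length there. Starts within 1000 bases of the next were joined into a group.

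Ratios used rounded expected counts, edgeR 4.0.16 TMM scaling in R 4.3.3, a prior count of 2 and a CPM of at least 1 in both libraries, and the fold limit was 2. The ratio script was tested on simulated data. With 1 library on each side no p-value was computed, and the spread describes these 2 pools only. Their counts differed beyond sampling noise (chi-square per degree of freedom 63.3). Alternatives were scaling by spike-ins, by DESeq2 1.42.0 size factors or by total counts, further filters, fold limits and prior counts, and posterior mean TPM. Log2 differences of levels used a pseudocount of 0.1. Named were all imprinted genes, the 6 highest at most of each other list, and the 2 commonest transcripts of a gene. Outside this rule, Zfp445 and Setdb1 were named for what they do and Snhg14 as the antisense RNA of Ube3a. Dnmt3l, Dppa3, Ctcfl, Nap1l5 and Begain were named after their values were seen. Members and lists were chosen with earlier results of these data known. Python 3.11.15, pandas 2.3.3, scipy 1.17.1 and matplotlib 3.10.9 were used.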

Additional observations from a re-analysis of the deposited data

How the results depend on the processing

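No paired analysis was possible because the series has a single group. Scaling by spike-ins moved the median of all tested genes by 0.82 (log2) towards replicate 2. On that scale the median ratio of the imprinted genes was 0.69, none was at least 2-fold lower in replicate 2 and 8 were at least 2-fold higher, and Meg3 (-0.22) and Magel2 (-0.28) were still below 0. The cause was not tested. The same scaling, applied to the other lists after seeing the data, turned the median above 0 for the further imprinted genes (0.74), hindbrain (0.36), neural progenitor (0.64), mesenchymal (0.63) and macrophage (0.17) genes. With TPM in place of counts the median was -0.035, and with a fold limit of 1.5 the number lower in replicate 2 was 4. Under the other scalings, prior counts and filters the numbers past 2-fold stayed within 1.5 times of those given. The paternal share of the summed level was 55.8% in expected counts, which are not scaled to length. Without replicate 1 or replicate 2 36 genes were detected in either case, the paternal share ranged from 57.3 to 62.0%, the maternal share from 5.76 to 7.10% and that of genes with a varying copy from 30.9 to 36.99%. Genes under about 50 counts, such as Usp29 or Rasgrf1, have wide counting intervals, and shares of starts rest on the assignment of reads to annotated forms.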
